A study of Mus musculus with 6 samples.

Results

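The 39 genes described here encode the machinery of cell division and DNA replication: 26 act mainly in mitosis and 13 in DNA replication or the supply of its nucleotides. They were chosen by name and matched by symbol to the 55769 features measured in each library, and all 39 were found. The libraries are RNA-seq of tissue labelled as cochlear, from the coiled organ of hearing, taken on postnatal day 3 from Plscr5-/- mice (3 libraries) and from wild-type mice (3 libraries). Plscr5 belongs to the phospholipid scramblase family. The labels give no other allele, treatment, strain or sex for either group, do not say which part of Plscr5 was altered or which cells of the cochlea lack it, and do not say whether each library is 1 animal or a pool. Their extraction text speaks of Pou4f3 heterozygous mice, which none of the libraries is listed as, and groups follow the genotype field. P-values therefore reflect only how far these libraries spread, which may in part be technical.

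In a dividing cell the minichromosome maintenance (MCM) proteins are loaded on DNA before replication and unwind it, while ribonucleotide reductase, thymidylate synthase and thymidine kinase supply the building blocks. Later, cyclin-dependent and other kinases drive the cell into mitosis, kinesins and kinetochore proteins move the chromosomes, and the anaphase-promoting complex ends the division. In the mouse cochlea the hair cells and supporting cells of the sensory epithelium have left the cell cycle before birth, whereas glia, mesenchyme and other tissues around it can still divide after birth.

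Values are TPM (an abundance per transcript length in which every library has the same total), so levels of different genes can be set side by side, but sequencing depth is unknown. Fold changes give the knockout mean less the wild-type mean of log2(TPM + 1), a scale that understates changes of low genes, and were tested with limma across 17097 features with Benjamini-Hochberg adjustment. Values given 3 in a row are always replicates 1, 2 and 3. Plscr5 itself was at 4.30, 3.69 and 5.01 TPM across the knockout libraries against 14.53, 12.42 and 9.27 TPM across the wild-type ones, with no overlap. Every knockout value was below every wild-type value for 4.74% of all features. The log2 fold change of Plscr5 was -1.28 (limma adjusted p = 0.290), so even the altered gene did not reach an adjusted p under 0.05. All 11 hair cell and all 11 supporting cell markers listed passed the filter of 1 TPM in 3 libraries. Wild type replicate 3 stood apart in several gene lists, including those described here, and each main result is given with and without it. In bulk tissue, fewer cells of a type and less RNA per cell cannot be told apart.

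The promoters of the 2 classes of gene carry different short sequences, which are shown first. Whether these sequences bear on how far the genes vary between libraries was not tested. Promoters of many mitotic genes hold a cell cycle homology region, a short element bound by repressor and activator complexes that time expression to late in the cycle, together with CCAAT boxes bound by NF-Y. Promoters of many replication genes hold sites for E2F factors, which act before and during replication. Windows from 250 bases before to 50 after the gene start, from RefSeq (GRCm38.p6), were found for 33 of the 39 genes by symbol. The words searched on both strands were TTTGAA and TTCGAA for the cell cycle homology region, CCAAT for the CCAAT box, and TTTCGCGC, TTTGGCGC, TTTCCCGC and TTTGCCGC for the E2F site. Of 92 matches, 2 overlapped a match to another motif.

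Of 21 mitotic genes with a window, 16 (76.2%) held a cell cycle homology region, against 2 of 12 replication genes (16.7%), 16.3% of the 11752 tested genes with a window and 21.7% of all 27025 genes in the promoter table. E2F sites had the opposite distribution: they were in 6 of 12 replication genes (50%), namely Mcm3, Mcm5, Mcm6, Mcm7, Cdc6 and Cdt1, and in 1 of 21 mitotic genes (4.76%), Cdk1, against 4.42% of tested genes and 2.6% of all genes in the table. The CCAAT box was in 16 of 21 mitotic and 8 of 12 replication genes, against 42.4% of tested genes and 41.1% of all genes in the table. In 14 of the 16 mitotic genes with a cell cycle homology region, a match began within 50 bases of the gene start. A match to so short a word describes the sequence and does not show that a factor binds there.

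The following are the 160 bases before the start of 4 mitotic and 2 replication genes, read on the gene's strand, with every match in capitals. Top2a (chr11:99024190-99024349, minus strand), Cdk1 (chr10:69352913-69353072, minus strand) and Cdc20 (chr4:118437344-118437503, minus strand) show homology regions and CCAAT boxes side by side. Plk1 (chr7:122159275-122159434, plus strand), the member with the smallest p below, shows a single CCAAT box here, and its TTTGAA word begins at base 31 after the start. Mcm6 (chr1:128359706-128359865, minus strand) and Mcm5 (chr8:75109349-75109508, plus strand) show E2F sites, in each case a pair on opposite strands that share bases.
Top2a: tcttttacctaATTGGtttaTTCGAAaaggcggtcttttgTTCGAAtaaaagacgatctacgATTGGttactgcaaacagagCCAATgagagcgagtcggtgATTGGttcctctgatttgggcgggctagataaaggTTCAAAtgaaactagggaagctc
Cdk1: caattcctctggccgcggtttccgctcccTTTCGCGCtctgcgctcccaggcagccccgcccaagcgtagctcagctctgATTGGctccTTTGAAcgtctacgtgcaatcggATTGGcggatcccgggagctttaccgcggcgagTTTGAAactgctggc
Cdc20: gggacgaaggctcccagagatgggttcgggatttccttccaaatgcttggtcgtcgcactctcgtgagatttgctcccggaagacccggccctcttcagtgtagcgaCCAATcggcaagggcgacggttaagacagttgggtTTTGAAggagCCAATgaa
Plk1: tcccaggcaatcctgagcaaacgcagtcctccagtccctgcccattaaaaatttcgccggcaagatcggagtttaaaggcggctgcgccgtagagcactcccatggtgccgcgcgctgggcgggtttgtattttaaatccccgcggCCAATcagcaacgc
Mcm6: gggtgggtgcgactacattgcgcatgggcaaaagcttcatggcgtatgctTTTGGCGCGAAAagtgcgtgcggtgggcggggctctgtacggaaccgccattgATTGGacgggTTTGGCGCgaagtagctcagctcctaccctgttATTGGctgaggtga
Mcm5: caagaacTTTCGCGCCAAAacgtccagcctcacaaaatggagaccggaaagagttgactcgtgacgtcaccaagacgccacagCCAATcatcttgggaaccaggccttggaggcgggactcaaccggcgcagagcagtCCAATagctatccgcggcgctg
In Top2a the homology region nearest the start begins at base -23, in Cdk1 at -15 and in Cdc20 at -18.

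**Figure D1:**
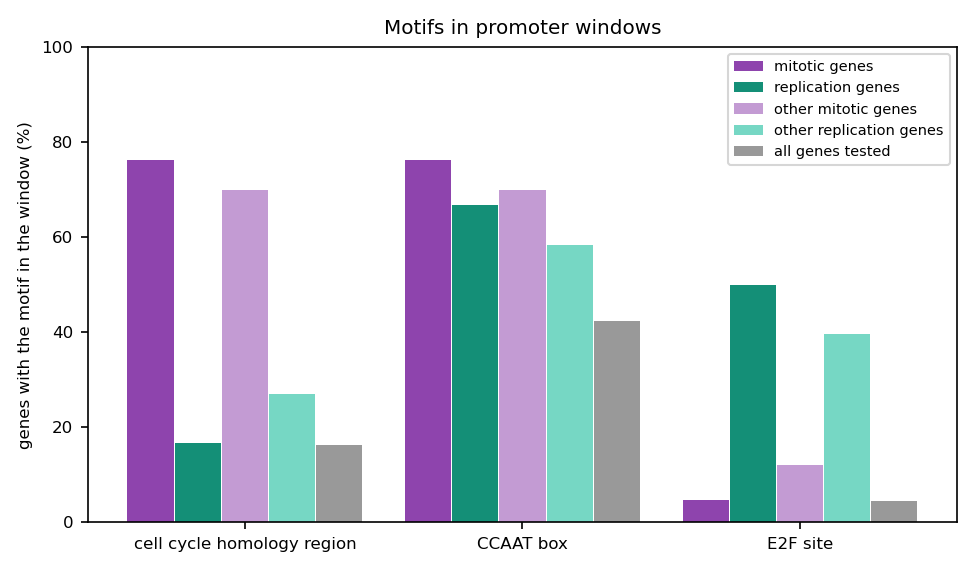
Share of genes (percent, vertical axis) whose promoter window holds each motif (horizontal axis), for mitotic genes, replication genes, the 2 longer lists of other mitotic and replication genes, and all genes tested. The cell cycle homology region is in 76.2% of mitotic and 16.7% of replication genes, and the E2F site in 4.76% and 50%.

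No gene of cell division or replication passed the threshold, while most were somewhat higher in the knockout. Of 26 mitotic genes 22 had a positive log2 fold change, with a median of 0.25, and of 13 replication genes 10 did, with a median of 0.10. Over all features tested 46.6% were positive and the median was -0.01. By limma 0 of 39 genes had an adjusted p under 0.05 (0.0117% of all features did, 2 of 17097), the smallest adjusted p being 0.989. At an unadjusted limma p under 0.05, 2 of 39 genes were higher (background 2.15%) and 0 lower (background 1.85%).

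Without wild type replicate 3 most of this difference was gone. The mitotic median was then 0.03, with 15 of 26 positive, and the replication median was -0.01, with 5 of 13 positive, where 47.1% of all features were positive. The fold change became smaller or more negative in 24 of 26 mitotic and 12 of 13 replication genes, and the sign changed in 9 mitotic and 5 replication genes. Again 0 of 39 genes passed by limma (background 0.0178%, smallest adjusted p 0.912), and at an unadjusted limma p under 0.05 there were 1 higher gene (background 2.33%) and 0 lower genes (background 2.3%). With knockout replicate 1 left out as well, the medians were -0.07 for mitotic and -0.10 for replication genes, below the -0.035 that all features then had.

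**Figure D2:**
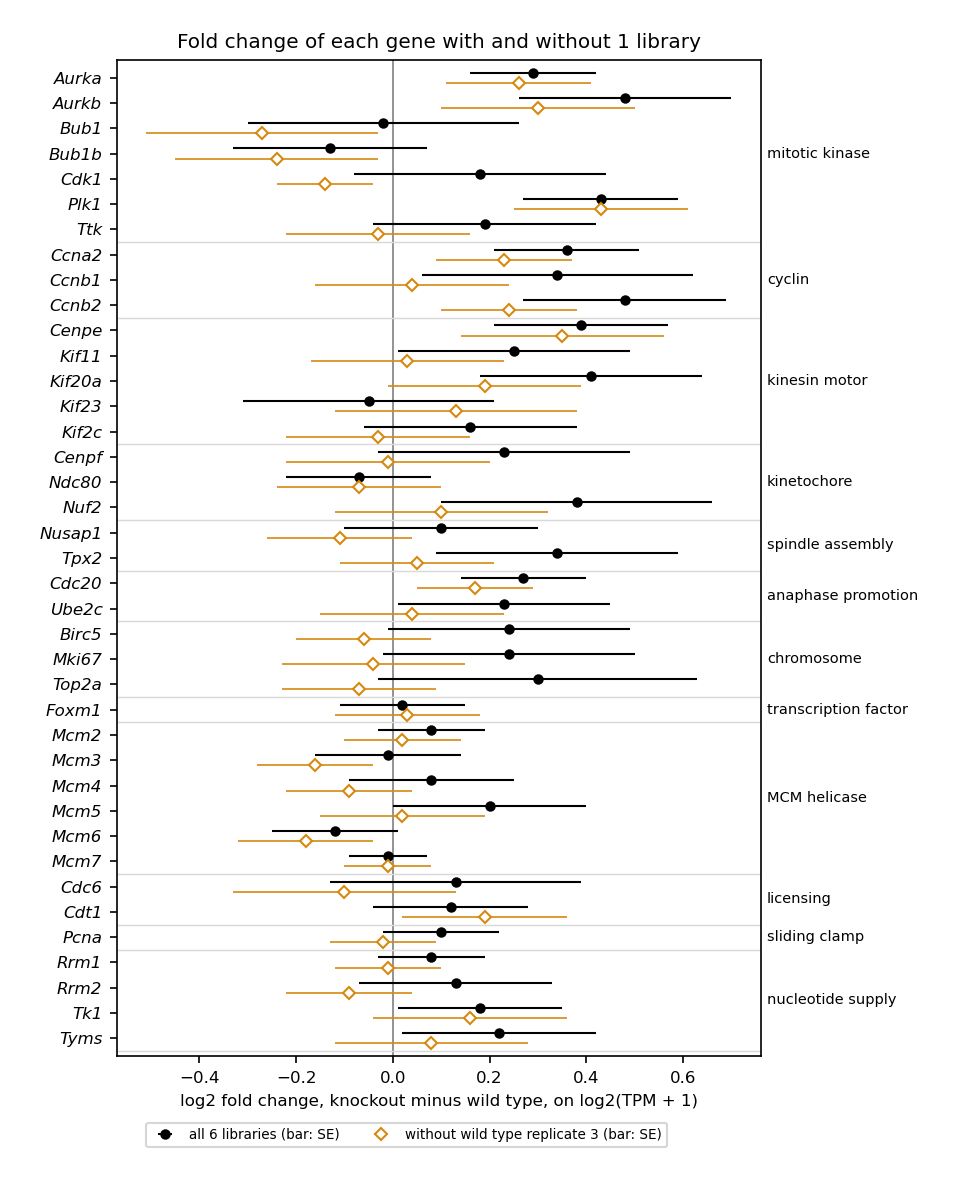
Log2 fold change of each of the 39 genes, knockout minus wild type on log2(TPM + 1) (horizontal axis), with all 6 libraries (filled circles) and without wild type replicate 3 (open diamonds), bars showing the SE from limma. The circles run from -0.13 to 0.48, and most diamonds lie to their left.

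The summed level of the 26 mitotic genes was 327.8, 283.1 and 244.6 TPM in knockout replicates 1, 2 and 3 and 269.7, 280.6 and 178.3 TPM in wild type replicates 1, 2 and 3. The knockout mean was 285 ± 42 TPM and the wild-type mean 243 ± 56 TPM (SD, n = 3 each). Knockout replicate 1 was highest and wild type replicate 3 lowest, and the other 4 libraries overlapped between the genotypes. The 13 replication genes summed to 343.0, 297.5 and 284.2 TPM across the knockout libraries against 312.2, 313.5 and 257.4 TPM across the wild-type ones, with the same libraries highest and lowest over a narrower range. Wild type replicate 3 held 63.4% of the mean of the other 5 libraries for mitotic genes and 83.0% for replication genes.

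Set against each other, mitotic genes varied more than replication genes. The mitotic sum was 95.6%, 95.2% and 86.1% of the replication sum in the knockout libraries and 86.4%, 89.5% and 69.3% in the wild-type libraries. Wild type replicate 3 was again lowest, and among the other 5 the genotypes overlapped, knockout replicate 3 being the next lowest. The median log2 fold change of mitotic genes exceeded that of replication genes by 0.15 with all libraries and by 0.05 without wild type replicate 3. The SD of this difference between libraries of a genotype was 0.131 with all libraries and 0.061 without wild type replicate 3. No test was made of this difference, since the genes were chosen with earlier results known.

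Wild type replicate 3 was the lowest of the 6 libraries for 21 of 26 mitotic and 9 of 13 replication genes, whereas 20.9% of all features were lowest there. Knockout replicate 1 was the highest for 19 mitotic and 8 replication genes, against 26.1% of all features. Relative to the mean of wild type replicates 1 and 2, wild type replicate 3 had a median difference of -0.64 (log2) over mitotic genes, from -1.12 to 0.57, and of -0.34 over replication genes, from -0.68 to 0.20. Over all features tested this median was -0.01. As a share of the mean of the other 5 libraries, wild type replicate 3 had a median of 55.4% over mitotic genes, from 45.2% to 140.8%. Over replication genes this median was 78.9%, from 48.3% (Cdc6) to 106.3% (Cdt1).

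**Figure D3:**
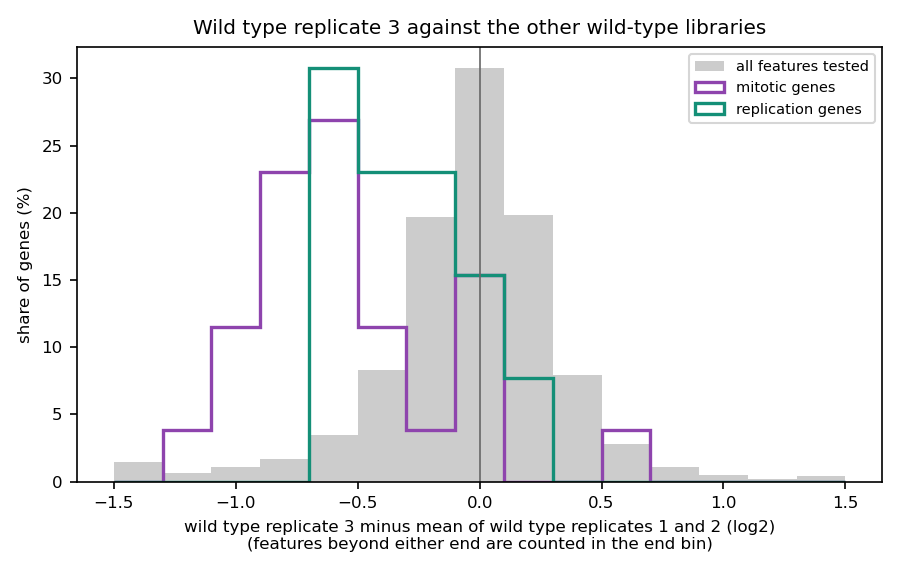
Wild type replicate 3 minus the mean of wild type replicates 1 and 2 on log2(TPM + 1) (horizontal axis), as the share of genes per bin (percent, vertical axis), for all features tested (grey), mitotic genes (purple) and replication genes (green). The grey distribution is centred near 0 (median -0.01), and the medians of mitotic and replication genes are -0.64 and -0.34.

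Most marker genes of nerve were low in the same library. Neuronal markers summed to 1315 to 1546 TPM in knockout libraries and to 798 to 1314 TPM in wild-type libraries, and 13 of 14 were lowest in wild type replicate 3. Isl1 was highest there, at 244.91 TPM against 201.47 to 217.93 TPM elsewhere. The median log2 fold change of neuronal markers was 0.82 with all libraries. Without wild type replicate 3 it was 0.295, with 13 of 14 positive, where 47.1% of all features were positive. Schwann cell markers summed to 1597 to 2431 TPM in knockout libraries and to 615 to 1582 TPM in wild-type libraries, and 10 of 12 were lowest in wild type replicate 3. Not lowest there were Ncmap (33.26 TPM against 18.64 to 34.38 TPM elsewhere) and Sox10 (186.1 TPM against 181.9 to 226.0 TPM). The median log2 fold change of Schwann cell markers was 0.73, and 0.277 without wild type replicate 3, with 10 of 12 positive. No neuronal or Schwann cell marker was at 0 in any library, and knockout replicate 1 had the highest sum of both lists. Osteoblast markers summed to 233 to 288 TPM in knockout libraries and to 96.3 to 255 TPM in wild-type libraries, and the low value was that of wild type replicate 3. It came from Spp1, at 40.10 TPM there and 147.43 to 226.00 TPM elsewhere. Without Spp1 the sum of wild type replicate 3 was 56.19 TPM, within the 50.82 to 68.30 TPM of the other libraries. Of all 9 tested markers, Spp1 included, 4 were lowest in wild type replicate 3, and Ibsp was highest there. Bglap2 was listed at 0 in 5 libraries and Bglap in knockout replicate 3 and wild type replicate 2. Neither passed the filter, and Bglap was highest in wild type replicate 3, at 3.46 TPM against 0 to 0.43 TPM elsewhere. The chondrocyte sum went the other way, at 7222 TPM in wild type replicate 3 and 5543 to 6101 TPM elsewhere, most of it from Col2a1, Col9a1 and Cnmd. Of 8 tested chondrocyte markers 5 were highest there and 1, Hapln1, was lowest, at 2.66 TPM against 3.54 to 10.34 TPM elsewhere. Comp and Matn3 did not pass the filter. Macrophage, granulocyte precursor and erythroid sums of wild type replicate 3 lay within the range of the other libraries, while mesenchyme (7781 TPM), endothelial (345.0 TPM) and supporting cell (1560 TPM) sums were slightly above it. Most of the mesenchyme sum came from Otor, at 5818.96 TPM there and 4975.44 to 5240.25 TPM elsewhere. Of the 9 mesenchyme markers 4 were highest in wild type replicate 3 and 3 were lowest. Col3a1, 1 of those 3, was at 248.77 TPM there and 349.1 to 525.8 TPM elsewhere. The hair cell sum (525.7 TPM) was slightly below, through Calb2 at 131.34 TPM against 203.52 to 251.37 TPM elsewhere. Without Calb2 it was the highest of the 6 libraries, at 394.4 TPM against 326.8 to 376.4 TPM, and 4 of 11 hair cell markers were highest there. The part of any of these cell types in the division genes was not tested.

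**Figure D4:**
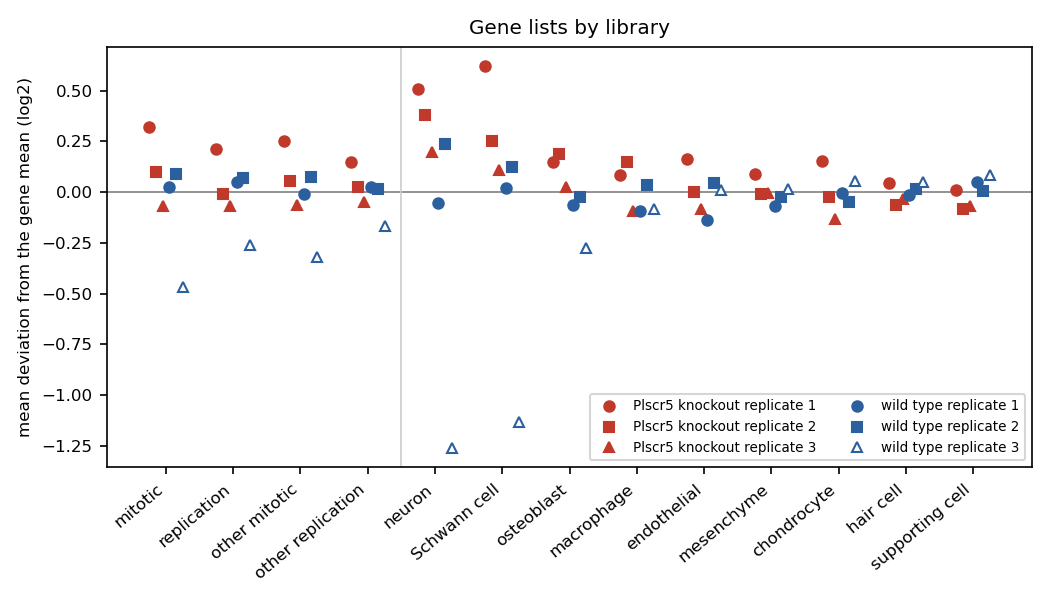
Mean deviation from each gene's mean over the 6 libraries (log2, vertical axis) for lists of genes (horizontal axis), 1 point per library, with wild type replicate 3 as an open triangle. For mitotic genes that library lies at -0.47 and the others between -0.07 and 0.32, and for neuronal and Schwann cell markers it lies at -1.26 and -1.13.

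Among the mitotic kinases 5 of 7 had a positive fold change. Plk1, the polo-like kinase that acts at centrosomes and kinetochores, was at 9.08, 7.24 and 7.88 TPM across the knockout libraries against 4.72, 6.85 and 5.69 TPM across the wild-type ones. All knockout values lay above all wild-type values, and wild type replicate 1, not 3, was lowest. The log2 fold change of Plk1 was 0.43 (SE 0.16, 95% confidence interval 0.06 to 0.80, limma unadjusted p = 0.0273, adjusted p = 0.989), the smallest p of the 39 genes. Without wild type replicate 3 it was again 0.43 (limma unadjusted p = 0.0487, adjusted p = 0.912), and with knockout replicate 1 also left out it was 0.35.

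Aurka, the Aurora kinase of the spindle poles, also did not overlap, being at 6.60, 6.69 and 5.85 TPM across the knockout libraries against 4.88, 5.42 and 4.83 TPM across the wild-type ones. Its log2 fold change was 0.29 (SE 0.13) and 0.26 without wild type replicate 3. Aurkb, the Aurora kinase of the chromosomal passenger complex, stood at 15.57, 9.77 and 12.22 TPM and at 8.78, 10.92 and 6.41 TPM, so knockout replicate 2 lay below wild type replicate 2. Its log2 fold change was 0.48, or 0.30 once wild type replicate 3 was left out. Cdk1, the cyclin-dependent kinase that triggers mitosis, changed direction with 1 library, being at 37.33, 37.88 and 33.26 TPM across the knockout libraries against 40.47, 39.35 and 19.83 TPM across the wild-type ones. Its log2 fold change was 0.18 with all libraries and -0.14 without wild type replicate 3, where every knockout value lay below both remaining wild-type values. The spindle checkpoint kinase genes Bub1 (log2 fold change -0.02), Bub1b (-0.13) and Ttk (0.19) had no consistent direction. Bub1 was at 4.07, 1.96 and 2.73 TPM across the knockout libraries against 3.73, 3.50 and 1.72 TPM across the wild-type ones, with the largest p of the kinases (limma unadjusted p = 0.955).

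All 3 cyclin genes had a positive fold change, both with and without wild type replicate 3. Ccna2, the cyclin that serves replication and entry into mitosis, was at 15.06, 15.00 and 12.26 TPM across the knockout libraries against 12.24, 11.44 and 8.72 TPM across the wild-type ones. The groups did not overlap, though knockout replicate 3 and wild type replicate 1 nearly touched, and Exosc9, at 26.59 to 33.99 TPM, overlaps Ccna2 on the other strand. The log2 fold change of Ccna2 was 0.36 (SE 0.15, limma unadjusted p = 0.0432, adjusted p = 0.989) and 0.23 without wild type replicate 3 (limma unadjusted p = 0.13). Ccnb2, a B-type cyclin of mitosis, stood at 12.15, 11.43 and 9.78 TPM and at 8.86, 9.63 and 5.21 TPM, again without overlap, with a log2 fold change of 0.48 (SE 0.21) and 0.24 without wild type replicate 3. Its value is less certain because a transcribed copy, Ccnb2-ps, was listed at 6.48, 5.89 and 6.64 TPM across the knockout libraries and at 5.43, 11.16 and 5.62 TPM across the wild-type ones, and reads may be split between the 2. Summed with the copy, Ccnb2 was at 18.63, 17.32 and 16.42 TPM across the knockout libraries against 14.29, 20.79 and 10.83 TPM across the wild-type ones, so the groups then overlapped, wild type replicate 2 being highest. Ccnb1, the main B-type cyclin, was at 13.20, 10.40 and 8.29 TPM across the knockout libraries against 9.08, 11.29 and 4.95 TPM across the wild-type ones, and its log2 fold change was 0.34, or 0.04 once wild type replicate 3 was left out.

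Of the 5 kinesin genes 4 had a positive fold change. Cenpe, the kinetochore motor that helps align chromosomes, was at 7.48, 5.09 and 4.61 TPM across the knockout libraries against 4.20, 4.16 and 3.76 TPM across the wild-type ones. The groups did not overlap, and knockout replicate 1 was far above the rest. The log2 fold change of Cenpe was 0.39 (SE 0.18, limma unadjusted p = 0.064), 0.35 without wild type replicate 3 and 0.17 with knockout replicate 1 also left out. Kif20a, a motor of late mitosis, had a log2 fold change of 0.41 that was 0.19 without wild type replicate 3, and reads may be shared with Cdc23, which overlaps it on the other strand. Kif11, which pushes the spindle poles apart, and Kif2c, a microtubule depolymerase, went from 0.25 to 0.03 and from 0.16 to -0.03. Kif23, a motor of the central spindle needed for cytokinesis, was the exception of the whole set, with its highest value in wild type replicate 3. It was at 10.76, 13.25 and 6.96 TPM across the knockout libraries against 7.82, 10.40 and 13.85 TPM across the wild-type ones, and wild type replicate 3 was at 141% of the mean of the other 5 libraries.

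The 3 kinetochore genes did not vary alike. Nuf2 and Ndc80 encode partners in the complex that binds microtubules. Nuf2 was at 9.12, 7.29 and 5.11 TPM across the knockout libraries against 6.23, 6.73 and 3.17 TPM across the wild-type ones (log2 fold change 0.38, and 0.10 without wild type replicate 3). Ndc80 stood at 3.45, 3.30 and 3.72 TPM and at 4.11, 3.35 and 3.69 TPM (log2 fold change -0.07 with and without that library). In wild type replicate 3 Nuf2 was thus at 46.0% and Ndc80 at 103% of the mean of the other libraries. Cenpf, a large kinetochore protein, was low in all libraries, from 1.38 TPM in wild type replicate 3 to 3.53 TPM in knockout replicate 2.

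Spindle, anaphase and chromosome genes overlapped between the genotypes, and all 7 had their lowest value in wild type replicate 3. Tpx2, which nucleates spindle microtubules, was at 10.78, 9.32 and 7.65 TPM across the knockout libraries against 9.01, 8.64 and 4.40 TPM across the wild-type ones (log2 fold change 0.34, and 0.05 without wild type replicate 3). Nusap1, a microtubule-bundling protein, stood at 6.94, 7.96 and 6.36 TPM and at 8.28, 7.15 and 4.58 TPM (0.10, and -0.11 without that library). Cdc20, an activator of the anaphase-promoting complex, stood at 19.84, 20.80 and 16.85 TPM and at 16.37, 17.39 and 13.44 TPM, with 2 knockout libraries above every wild-type one (log2 fold change 0.27, SE 0.13, and 0.17 without that library). Elovl1, at 70.96 to 95.30 TPM, overlaps Cdc20 on the other strand. Ube2c, the ubiquitin-conjugating partner of the same complex, stood at 24.71, 18.76 and 15.07 TPM and at 18.20, 19.02 and 12.08 TPM (0.23, and 0.04 without that library).

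The 3 chromosome-associated genes had the lowest relative level of any role in wild type replicate 3, at a summed 48.8% of the mean of the other libraries. Top2a, the topoisomerase that untangles replicated DNA, was at 29.60, 26.96 and 20.13 TPM across the knockout libraries against 27.30, 25.98 and 11.75 TPM across the wild-type ones, with 45.2% in wild type replicate 3, the lowest share of the 39 genes. Mki67, the antigen used to stain dividing cells, stood at 13.43, 10.25 and 8.36 TPM and at 10.92, 10.72 and 5.65 TPM. Birc5, the passenger complex subunit survivin, stood at 18.64, 14.59 and 15.42 TPM and at 16.00, 17.66 and 8.53 TPM. Their log2 fold changes of 0.30, 0.24 and 0.24 became -0.07, -0.04 and -0.06 without wild type replicate 3. Foxm1, a transcription factor that activates many of the mitotic genes, did not share the low value: it was at 11.01, 8.62 and 8.73 TPM across the knockout libraries against 8.74, 9.70 and 9.45 TPM across the wild-type ones (log2 fold change 0.02). Its level is less certain because the protein-coding genes Tex52 and Gm44596 overlap it on the same strand.

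In all, 5 of the 39 genes had every knockout value above every wild-type value (Plk1, Aurka, Ccna2, Ccnb2 and Cenpe) and 0 had the reverse, where 4.6% and 4.74% of all features did. All 5 were mitotic genes, and for Ccnb2 the separation was lost when its copy was added. Against wild type replicates 1 and 2 alone the same 5 lay above (background 9.88%) and 1, Cdk1, lay below (background 9.23%). Leaving libraries out cannot undo the separation by which these 5 were picked, so their positive sign there was fixed by the choice. The log2 fold changes of these 5 genes were between 0.23 and 0.43 without wild type replicate 3. With knockout replicate 1 also left out they were between 0.17 and 0.35. None passed the limma threshold in any of the 16 alternative settings in which it was tested. Of the 39 genes 9 overlap a protein-coding gene in the annotation, and their values are less certain.

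**Figure D5:**
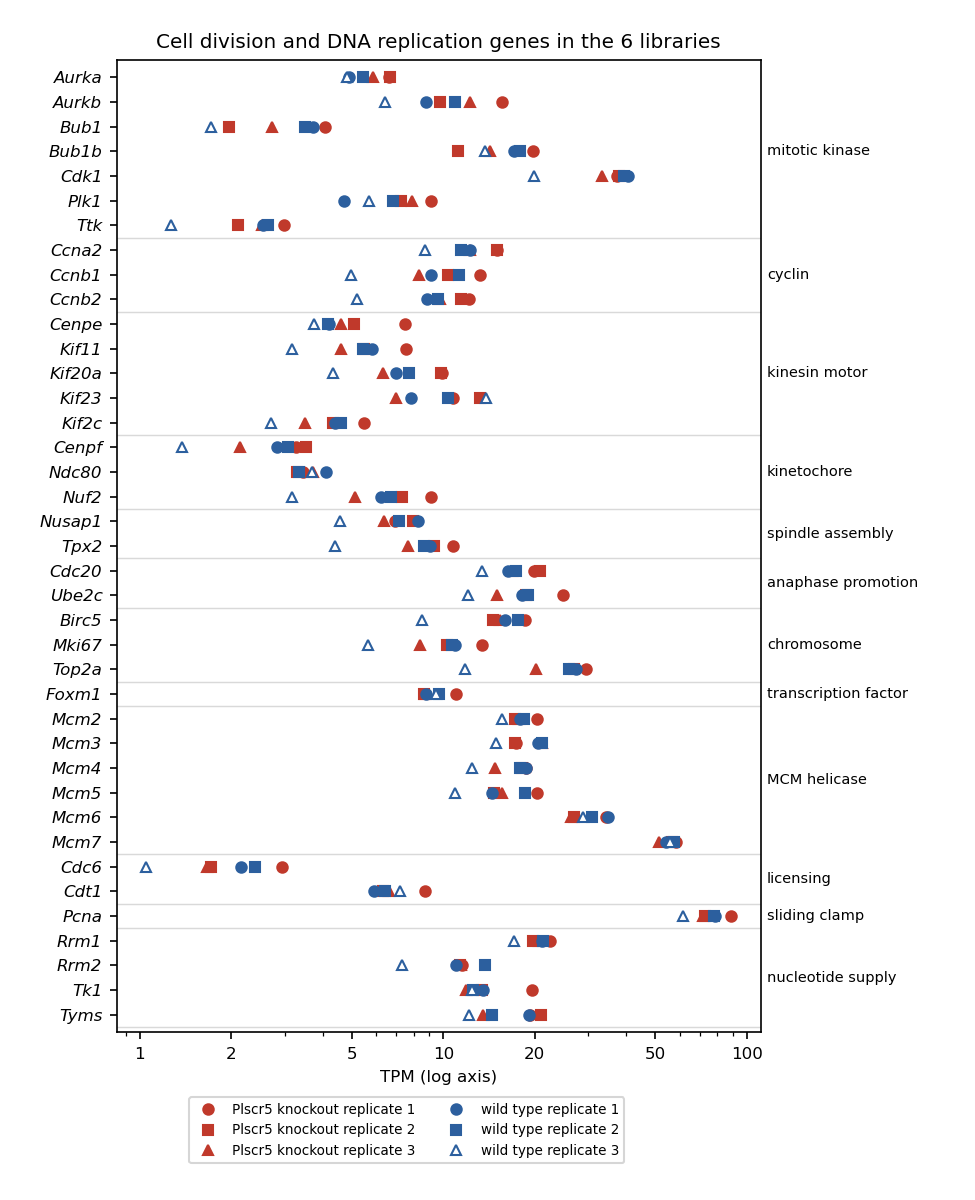
TPM of each of the 39 genes (horizontal log axis) in the 3 knockout libraries (red) and 3 wild-type libraries (blue), ordered by role, with wild type replicate 3 as an open triangle. The open triangle is the leftmost point for 30 of 39 genes and the rightmost for Kif23.

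Replication genes were expressed at higher levels than mitotic genes and differed less between libraries. Their mean over the 6 libraries had a median of 16.8 TPM and ran from 1.99 TPM (Cdc6) to 75.2 TPM (Pcna), while that of mitotic genes had a median of 8.84 TPM and ran from 2.35 TPM (Ttk) to 34.7 TPM (Cdk1). Among the 6 MCM genes, whose products form 1 helicase ring, 3 fold changes were positive and 3 negative. Mcm5 was at 20.34, 14.65 and 15.58 TPM across the knockout libraries against 14.46, 18.59 and 10.96 TPM across the wild-type ones (log2 fold change 0.20, SE 0.20, and 0.02 without wild type replicate 3). Mcm3 stood at 17.41, 17.29 and 21.18 TPM and at 20.57, 21.10 and 14.91 TPM (-0.01, and -0.16 without that library). Mcm2 stood at 20.28, 17.27 and 17.71 TPM and at 17.89, 18.45 and 15.66 TPM (0.08, and 0.02 without that library).

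The subunits of this ring did not share the low value of wild type replicate 3 equally. Mcm5 was at 65.5%, Mcm4 at 70.6%, Mcm3 at 76.4%, Mcm2 at 85.5%, Mcm6 at 94.2% and Mcm7 at 100.2% of the mean of the other 5 libraries. Mcm7, the most abundant subunit, was at 58.41, 56.72 and 51.17 TPM across the knockout libraries against 54.23, 57.64 and 55.74 TPM across the wild-type ones. Its level is uncertain because 2 protein-coding genes, Cops6 and Ap4m1, overlap it on the other strand at 93.07 to 104.16 TPM and 38.97 to 46.87 TPM, and the sources used here do not say whether counting used strand. Mcm6 had the most negative fold change of the replication genes (-0.12, and -0.18 without wild type replicate 3).

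Cdc6 and Cdt1, which load the helicase, differed from each other in wild type replicate 3. Cdc6 was at 2.95, 1.72 and 1.66 TPM across the knockout libraries against 2.15, 2.39 and 1.05 TPM across the wild-type ones (log2 fold change 0.13, and -0.10 without wild type replicate 3). Cdt1 stood at 8.71, 6.31 and 6.61 TPM and at 5.89, 6.44 and 7.22 TPM (0.12, and 0.19 without that library), with wild type replicate 3 the highest of its group. The protein-coding gene Gm20388 overlaps Cdt1 on the same strand, so the level of Cdt1 is less certain. Pcna, the sliding clamp of the replicative polymerases, stood at 88.85, 72.88 and 71.60 TPM and at 78.50, 78.11 and 61.52 TPM (0.10, and -0.02 without that library).

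The 4 nucleotide-supply genes had fold changes from 0.08 to 0.22. Tyms, thymidylate synthase, had the smallest p of the replication genes, being at 19.37, 21.06 and 13.50 TPM across the knockout libraries against 19.17, 14.46 and 12.12 TPM across the wild-type ones (log2 fold change 0.22, SE 0.20, limma unadjusted p = 0.306). Rrm2, the regulated subunit of ribonucleotide reductase, was nearly constant in the knockout, at 11.55, 11.35 and 11.47 TPM, and stood at 11.00, 13.68 and 7.31 TPM in the wild type (0.13, and -0.09 without wild type replicate 3). Its partner Rrm1 stood at 22.48, 19.77 and 20.74 TPM and at 21.07, 21.28 and 17.11 TPM (0.08, and -0.01 without that library). In wild type replicate 3 Rrm2 was at 61.9% and Rrm1 at 81.2% of the mean of the other libraries. Tk1, thymidine kinase, was set by knockout replicate 1, at 19.59 TPM there and 11.88 to 13.49 TPM in the other 5 libraries.

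Other genes of the same processes showed the same order between the 2 classes. Of 60 other mitotic genes 59 passed the filter, 49 had a positive log2 fold change, and the median was 0.15. Of 60 other replication genes all 60 passed, 39 were positive and the median was 0.05. Without wild type replicate 3 the counts were 36 of 59 and 30 of 60, and the medians 0.06 and 0.00. Wild type replicate 3 was the lowest library for 39 of the 59 and 25 of the 60. None passed by limma after adjustment (background 0.0117%). In each list 2 genes had an unadjusted limma p under 0.05 as higher (background 2.15%) and 0 as lower (background 1.85%).

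The other mitotic genes with the smallest p were Ckap2 (log2 fold change 0.46), which stabilizes spindle microtubules, the centromere protein gene Cenpm (0.45), Dlgap5 (0.39), a spindle assembly factor, and Espl1 (0.77), the separase that opens the cohesin ring. Espl1 was at 13.22, 5.75 and 6.34 TPM across the knockout libraries against 4.91, 5.57 and 2.65 TPM across the wild-type ones, without overlap and with knockout replicate 1 far above the rest. The other replication genes with the smallest p were Asf1b, Dut, Pole2 and Rfc3. Asf1b, a histone chaperone, was at 7.66, 11.05 and 9.40 TPM across the knockout libraries against 7.36, 4.63 and 2.85 TPM across the wild-type ones (log2 fold change 0.86, SE 0.28, limma unadjusted p = 0.0148, adjusted p = 0.989, and 0.58 without wild type replicate 3). The groups of Asf1b did not overlap. Dut, which removes dUTP, stood at 33.24, 31.96 and 27.79 TPM and at 25.45, 27.27 and 22.80 TPM, without overlap (0.29, and 0.22 without that library). Pole2, a subunit of a replicative polymerase, and Rfc3, a subunit of the clamp loader, had log2 fold changes of 0.27 and 0.22. The groups of Ckap2, Dlgap5 and Pole2 did not overlap either, while those of Cenpm and Rfc3 did. Genes picked by smallest p tend to have separated groups, so this is partly a result of the choice. Over the whole lists every knockout value was above every wild-type value in 4 of 59 other mitotic and 4 of 60 other replication genes (background 4.6%). The reverse held for 0 genes of either list (background 4.74%).

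The 16 mitotic genes whose promoter window held a cell cycle homology region had a median log2 fold change of 0.23 and stood at a median of 57.8% of the other libraries in wild type replicate 3. The 5 without one (Birc5, Ccnb1, Cenpe, Nuf2 and Nusap1) had medians of 0.34 and 51.8%. Kif23, Ndc80 and Bub1b, with shares of 141%, 103% and 85.7% in that library, all held the word, as did Top2a at 45.2%.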

How the data were processed

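Total RNA of cochleae was sequenced in 6 libraries, with groups taken from the labelled genotype. The authors deposited 1 value per gene and library in TPM, read from the values, which sum to 1000000 per library within rounding. DESeq2 and the build mm8 appear, with no role, in the submitters' processing notes. For the aligner, quantifier, annotation and strand setting, the entry is: not given in the sources used here. Because TPM keeps no read totals, depth is unknown and no counting interval can be given. Symbols came from GENCODE M21, which named 52135 features, and promoters from RefSeq.

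Features reaching 1 TPM in 3 or more libraries were tested on log2(TPM + 1) with limma 3.58.1 in R 4.3.3, with a variance trend and robust moderation, over all 17097 features, threshold 0.05. The design had provided for counts or normalized values. The fit was tested on simulated data. The gene lists and members were chosen with earlier results of these data known, so lists are described by counts and medians with no list test. Named were the members with the smallest and largest p of each role, Mki67, Top2a, Mcm2 and Pcna with all values, other members in part, and the 4 smallest p of each list of other genes. Values of members outside that rule, the promoters printed, the marker genes named and the sums without Spp1, without Calb2 and with Ccnb2-ps were chosen after values were seen. Alternatives were other pseudocounts, filters, scalings, gene sets and variance settings, a replicate block and each library left out.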

Additional observations from a re-analysis of the deposited data

How the results depend on the processing

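Over 16 alternative settings 0 of 617 checks on the 39 genes passed the threshold (smallest adjusted p 0.382), and 56 changed the sign, of which 55 had libraries left out: 14 without wild type replicate 3 and 23 without it and knockout replicate 1, an alternative chosen after seeing the data. The other was Mcm3, -0.01 in the main analysis and 0.00 after rounding with median-of-ratios scaling. Sign changes include values that round to 0. With both left out the median log2 fold changes were -0.07 (mitotic), -0.10 (replication), -0.05 (other mitotic) and -0.04 (other replication). With single libraries or both left out, the log2 fold changes of the genes whose sign changed ranged as follows. In the first group they were Mki67 -0.20 to 0.38, Top2a -0.19 to 0.50, Ccnb1 -0.11 to 0.56, Cdk1 -0.16 to 0.36, Bub1 -0.47 to 0.17, Bub1b -0.44 to 0.05, Kif11 -0.14 to 0.39, Kif23 -0.24 to 0.18, Kif2c -0.16 to 0.29, Birc5 -0.15 to 0.43, Tpx2 -0.06 to 0.50, Cenpf -0.07 to 0.39, Nusap1 -0.11 to 0.26, Ube2c -0.14 to 0.40. In the second they were Ttk -0.12 to 0.31, Nuf2 -0.07 to 0.57, Foxm1 -0.09 to 0.07, Mcm2 -0.05 to 0.13, Mcm3 -0.16 to 0.08, Mcm4 -0.15 to 0.19, Mcm5 -0.11 to 0.38, Mcm7 -0.05 to 0.04, Pcna -0.11 to 0.16, Rrm1 -0.06 to 0.14, Rrm2 -0.10 to 0.32, Tk1 -0.04 to 0.32, Cdc6 -0.28 to 0.27, Cdt1 -0.01 to 0.20. Over the same settings the medians ranged from -0.07 to 0.39 (mitotic), -0.10 to 0.16 (replication), -0.05 to 0.24 (other mitotic), -0.04 to 0.11 (other replication), and 0.02 to 0.23 for mitotic minus replication. The count of features past the threshold, 2 in the main analysis, was 1 with median-of-ratios scaling or without mitochondrial and haemoglobin genes, and 0 with no filter, without the variance trend or with the replicate block, and ranged from 0 to 3 with libraries left out. The replicate block cannot change a fold change in this balanced design, so the medians were again 0.25 and 0.10. With it 7 of the 39 genes had an unadjusted limma p under 0.05, against 2 without it, while the share of all features went from 4.0% to 7.31%. The 7 were Ccna2, Kif20a, Ccnb2, Cdc20, Nuf2, Plk1 and Cenpe, all higher in the knockout (limma unadjusted p from 0.00985 to 0.0443, smallest adjusted p 0.663). Same-numbered libraries deviated together in numbers 1 and 3 (correlations 0.19 and 0.24) but not 2 (-0.05), and not every library correlated best with its own number. The labels do not say what a number marks, so libraries were not treated as pairs. Depth is unknown, so the precision of low genes such as Cdc6 and Ttk cannot be stated.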
